A study of Mus musculus with 7 samples.

Results

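Microglia are the resident macrophages of the brain, and 31 genes that mark them or act in them were followed here in the hypothalamus of mice labelled as biglycan knockouts, on a diet with docosahexaenoic acid (DHA) and without it. The genes were taken from a list, by gene symbol, that was drawn up with earlier results of these data known. Of the 31 genes, 29 had a probe under their symbol in the platform annotation (39 of 25697 probes), and 26 genes with 31 probes passed the detection filter, a detection p-value under 0.05 on at least 2 of the 7 arrays. They stand beside 15284 probes and 10448 named genes tested in all. Csf1r, the receptor for the growth factors that keep microglia alive, and Cd68, a lysosomal protein of phagocytes, had no probe under those symbols and were not analysed here. Itgb2, Itgam and Ptprc, all leukocyte surface proteins, were detected on 0 of the 7 arrays.

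All animals were 13-week-old male mice labelled as biglycan (Bgn) knockouts on a C57BL/6 background, and biglycan is a small matrix proteoglycan. The Bgn probe itself gave a signal, with mean log2 values of 8.21 with DHA and 8.55 untreated, and since its place relative to the deletion is unknown it does not check the genotype. The DHA group (replicates 1 to 5) ate chow with 0.5% flaxseed oil and 1.2% oil from DHA capsules for about 6 weeks, and the untreated group (replicates 1 and 3) received no treatment. The untreated arrays carry the same knockout label, and no group had the flaxseed oil alone, so the comparison concerns the whole diet in animals of that label. The series text counts 3 untreated mice, 1 of them left out as an outlier; the labels do not name the animals, so p-values measure the spread between these samples, which may be partly technical.

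Microglia enter the brain early in development and renew themselves there under the control of transcription factors such as the products of Spi1 and Irf8 and, for their brain-specific state, Sall1. In the healthy brain they show a homeostatic state, with surface receptors that sense nucleotides (P2ry12, P2ry13), fractalkine released by neurons (Cx3cr1) and lipids (Gpr34). When they take up debris or respond to injury they typically lower several of these receptors and raise genes of phagocytosis and of the lysosome, among them Trem2, its adaptor Tyrobp, lysozyme and cathepsins. In the hypothalamus they are known for reacting to dietary fat. The members were therefore read in 3 roles, 11 homeostatic genes, 11 genes of activation and phagocytosis, and 9 genes shared by myeloid cells.

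Every DHA array was brighter than both untreated arrays, with median signals of 174.51 to 189.52 against 167.43 and 173.25, and detected more probes, 14251 to 14534 against 13970 and 13873. Quantile normalization set all arrays to 1 distribution before the comparison. Of 11 genes of hypothalamic neurons on the array, 9 were detected on all 7 arrays, among them Hcrt, Pmch and Avp, and 2, Sim1 and Crh, on 0. Undetected is a statement about a probe and not about a gene, since the probes of the abundant neuronal genes Snap25 and Nefl were also detected on 0 arrays. The 3 defining microglia markers, P2ry12, Cx3cr1 and Tmem119, were detected on all 7 arrays. In whole tissue, fewer cells of a type and less RNA per cell cannot be told apart. With 5 and 2 arrays, the precision of each value is limited.

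No microglia gene passed the test. Of the 31 member probes, 0 had a limma adjusted p under 0.05, where 0% of all 15284 tested probes did, and the smallest adjusted p among members was 0.37. An unadjusted p under 0.05 was reached by 7 member probes (22.6%), against 10.3% of all tested probes, and 3 of the 7 were higher and 4 lower with DHA. The higher ones were both tested probes of Lyz2 and the probe of Ctss. The lower ones belonged to Siglech, Fcrls, Ly86 and Aif1. Every DHA array lay above both untreated arrays for 2 member probes (6.45%, against 7.89% of all tested probes) and below both for 4 (12.9%, against 9.06%). By gene, taking the brightest tested probe, 10 of 26 members were higher and 16 lower with DHA, and the median log2 difference was -0.11, against -0.01 over all 10448 tested genes.

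**Figure D1:**
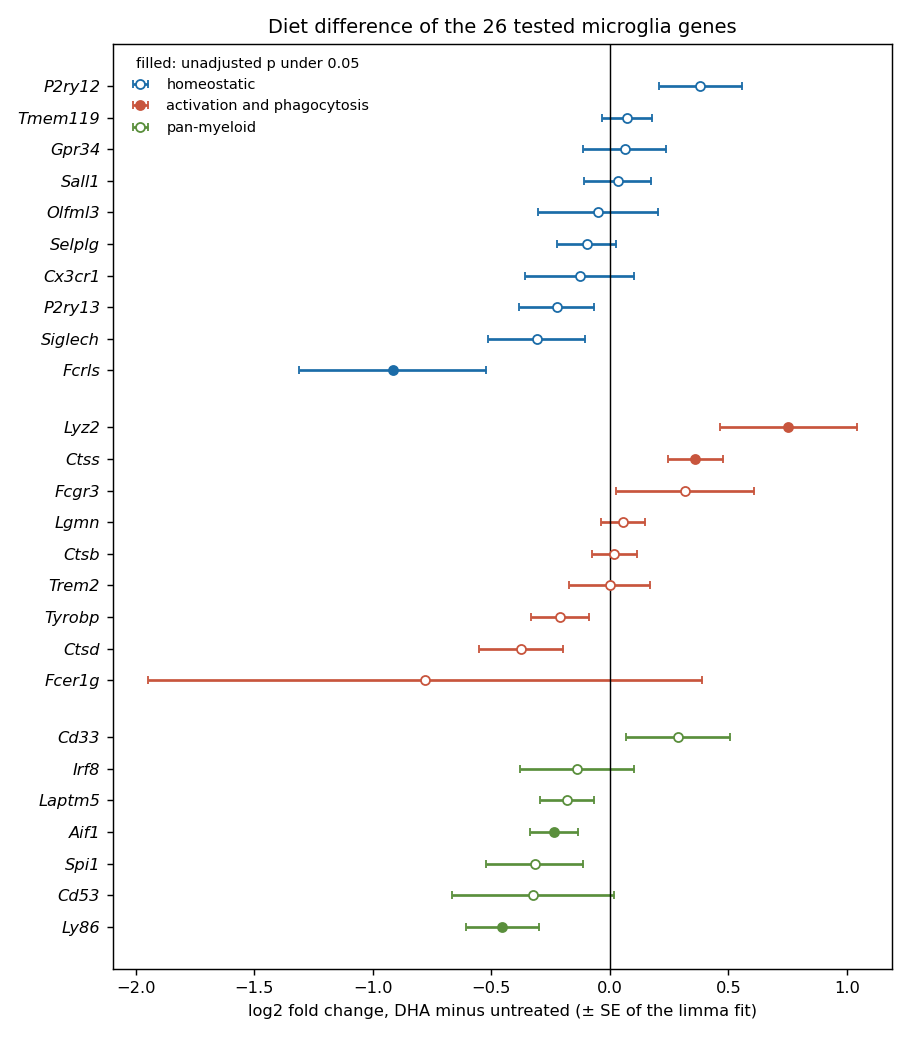
Log2 fold change, DHA minus untreated, of the brightest tested probe of each of the 26 genes (5 DHA and 2 untreated arrays), with the standard error of the limma fit as bars, sorted within homeostatic (blue), activation and phagocytosis (red) and pan-myeloid genes (green). Filled points had an unadjusted p under 0.05; Lyz2 at 0.75 and Fcrls at -0.92 lie farthest from 0 among them, and the wide bar belongs to Fcer1g.

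The defining markers did not differ in 1 direction. P2ry12, the ADP receptor that guides microglial processes to injury, had deposited signals of 242.7, 227, 196.1, 224.6 and 227.6 on the DHA arrays of replicates 1 to 5, against 190.7 and 186.1 on the untreated arrays of replicates 1 and 3. Its normalized log2 signals were 6.53, 6.57, 6.01, 6.48 and 6.65 with DHA, against 6.19 and 5.94 untreated. Only DHA replicate 3 was below untreated replicate 1, so the groups overlapped. The means were 6.45 ± 0.25 with DHA (SD, n = 5) and 6.07 ± 0.17 untreated (SD, n = 2), and they differed by 0.38 (SE 0.18, limma adjusted p 0.517). Tmem119, a membrane protein of resident microglia, read 7.28, 7.28, 7.31, 7.41 and 7.57 with DHA, against 7.31 and 7.29 untreated. The untreated pair lay inside the DHA range, and the difference was 0.07 (SE 0.11, limma adjusted p 0.84). Cx3cr1, the fractalkine receptor, read 7.64, 7.93, 8.19, 7.27 and 7.86 with DHA, against 8.07 and 7.74 untreated. DHA replicates 3 and 4 were its highest and lowest arrays, with the untreated pair between them. The difference of -0.13 (SE 0.23, limma adjusted p 0.869) turned to 0.04 without untreated replicate 1 and to 0.0007 without DHA replicate 4.

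Among the other homeostatic genes the widest difference was that of Fcrls, an Fc receptor-like protein typical of mouse microglia. It read 5.70, 6.92, 6.55, 5.37 and 6.07 with DHA, against 7.26 and 6.81 untreated. DHA replicates 1, 4 and 5 were low and DHA replicate 2 was above untreated replicate 3, so the groups overlapped in spite of a difference of -0.92 (SE 0.39, limma adjusted p 0.486). It was -0.37 without background correction and -0.36 on the authors' normalized values. The difference of P2ry12 was 0.14 without background correction. Siglech, a sialic acid-binding lectin of microglia, was measured by 2 tested probes. On the brighter one it read 7.19, 7.16, 7.26, 6.99 and 6.81 with DHA, against 7.76 and 7.02 untreated, a difference of -0.31 (SE 0.20, limma adjusted p 0.631) that turned to 0.06 without untreated replicate 1. On the dimmer one it read 6.61, 6.78, 6.84, 6.70 and 6.89 with DHA, against 7.23 and 7.01 untreated. Every DHA array was below both untreated arrays there, and the difference was -0.36 (SE 0.11, limma adjusted p 0.37, the smallest of all member probes). P2ry13, the second ADP receptor of microglia, read 7.52, 7.94, 7.82, 7.63 and 8.07 with DHA, against 8.11 and 7.94 untreated, and differed by -0.22 (SE 0.16, limma adjusted p 0.656), or by -0.14 without untreated replicate 1. The 2 ADP receptors thus had differences of opposite sign, 0.38 for P2ry12 and -0.22 for P2ry13, neither past the threshold.

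The remaining homeostatic genes lay within 0.1 log2 of no difference on their brightest probe. Gpr34, a receptor for lysophosphatidylserine, differed by 0.06 (SE 0.17) on one probe and by -0.25 (SE 0.14) on the other. Sall1, the transcription factor that holds microglia in their brain-specific state, differed by 0.03 (SE 0.14), and by -0.29 (SE 0.14) on a second probe detected on 1 of 5 DHA and both untreated arrays. For both genes the probes disagree in sign. Olfml3, a secreted matrix protein, differed by -0.05 (SE 0.25), and Selplg, the ligand of P-selectin, by -0.10 (SE 0.12). Their adjusted p from limma ranged over 0.526 to 0.96. Leaving out single arrays turned the sign of the brightest probe of Gpr34, Sall1, Olfml3 and Selplg.

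Among the genes of activation and phagocytosis, lysozyme and cathepsin S were the members higher with DHA at an unadjusted p under 0.05. Ctss, a lysosomal protease that trims antigens for presentation, read 6.60, 6.51, 6.64, 6.78 and 6.46 with DHA, against 6.35 and 6.13 untreated. All DHA arrays were above both untreated arrays, and the difference was 0.36 (SE 0.12, 1.28-fold, limma adjusted p 0.38). Lyz2, the lysozyme of macrophages, read 8.15, 8.90, 9.01, 8.42 and 8.48 with DHA, against 8.26 and 7.42 untreated. DHA replicate 1 was below untreated replicate 1, and untreated replicate 3 was the lowest array. The difference was 0.75 (SE 0.29, 1.69-fold, limma adjusted p 0.45). It was 0.33 without untreated replicate 3 and 1.17 without untreated replicate 1. That of Ctss was 0.14 without background correction. On its second tested probe Lyz2 read 5.94, 6.64, 6.47, 6.28 and 6.11 with DHA, against 5.90 and 5.61 untreated, where the groups did not overlap, and differed by 0.53 (SE 0.19, limma adjusted p 0.427). Whether these probes also read the closely related gene Lyz1 was not tested.

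Of the other 7 activation genes 3 were higher and 4 lower with DHA. Ctsd, the lysosomal aspartic protease, read 5.34, 5.50, 6.00, 5.44 and 5.48 with DHA, against 6.04 and 5.82 untreated, on a dim probe with detection p-values of up to 0.0251. DHA replicate 3 lay between the untreated arrays and the other DHA arrays below both, and the difference was -0.37 (SE 0.18, limma adjusted p 0.522), or -0.11 without background correction. Tyrobp, the signalling adaptor of Trem2, read 7.43, 7.14, 7.41, 7.33 and 7.33 with DHA, against 7.69 and 7.39 untreated, and differed by -0.21 (SE 0.12, limma adjusted p 0.581), or by -0.06 without untreated replicate 1. Trem2 itself, a receptor for lipids and debris, read 7.37, 7.99, 7.68, 7.91 and 7.58 with DHA, against 7.77 and 7.64 untreated. The untreated pair lay in the middle of the DHA range, and the difference was -0.0001 (SE 0.17). Ctsb, a lysosomal cysteine protease, differed by 0.02 (SE 0.10), and Lgmn, the asparaginyl endopeptidase of lysosomes, by 0.05 (SE 0.09). Both had a range of at most 0.24 over the 7 arrays. Fcgr3, a receptor for immunoglobulin G, differed by 0.32 (SE 0.29, limma adjusted p 0.739) and was highest on DHA replicate 4, at 8.20, and lowest on untreated replicate 3, at 7.02. Its difference was 0.0094 without untreated replicate 3 and 0.62 without untreated replicate 1.

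Fcer1g, the gamma chain through which Fc receptors signal, stood apart on 1 array. Its deposited signals were 694.1, 803.7, 451.6, 155.2 and 680.7 on the DHA arrays, against 433.7 and 740.3 on the untreated arrays. DHA replicate 4 was undetected, with a detection p of 0.194, whereas the detection p was 0 on the other 6 arrays. In normalized log2 units the values were 8.94, 9.39, 8.31, 4.74 and 9.16 with DHA, against 8.42 and 9.35 untreated. The difference was -0.78 (SE 1.17, limma adjusted p 0.84) with all arrays and 0.06 without DHA replicate 4. Fcgr3, whose protein signals through this chain, was highest on that same array. Fcer1g is outside the naming rule and was singled out after its values were seen.

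**Figure D2:**
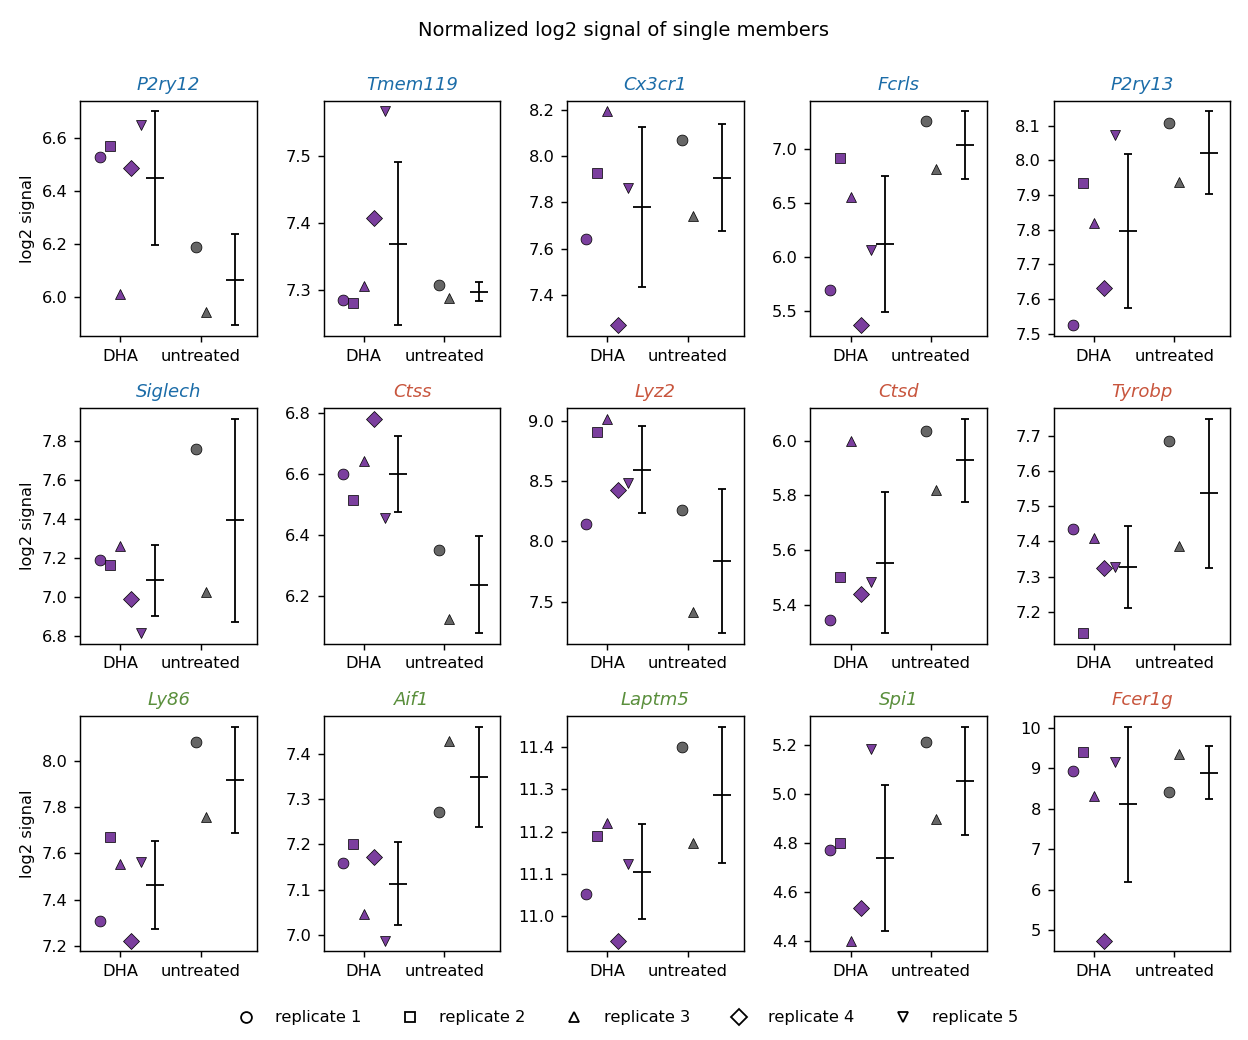
Normalized log2 signal (vertical axis, own range in each panel) of 15 microglia genes on the 5 DHA arrays (purple) and the 2 untreated arrays (grey), symbols giving the replicate number and the black mark and bar the group mean and SD. Each panel shows the brightest tested probe. On it, Ctss, Ly86 and Aif1 have groups that do not overlap, and Fcer1g on DHA replicate 4 lies at 4.74, below all its other arrays.

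The genes shared by myeloid cells were mostly lower with DHA, 6 of 7, without any passing. Ly86, a secreted partner of a Toll-like receptor relative, read 7.31, 7.67, 7.55, 7.22 and 7.56 with DHA, against 8.08 and 7.76 untreated. Every DHA array was below both untreated arrays, and the difference was -0.45 (SE 0.15, 0.73-fold, limma adjusted p 0.401). It was -0.29 without untreated replicate 1 and -0.28 without background correction. Aif1, whose protein is the microglial stain known as Iba1, read 7.16, 7.20, 7.05, 7.17 and 6.99 with DHA, against 7.27 and 7.43 untreated. The groups did not overlap, and the difference was -0.24 (SE 0.10, limma adjusted p 0.482), or -0.13 without background correction. Its second tested probe differed by -0.21 (SE 0.11). There DHA replicate 2, at 7.17, was above untreated replicate 3, at 7.13, so the groups overlapped. Laptm5, a lysosomal membrane protein of leukocytes, read 11.05, 11.19, 11.22, 10.94 and 11.12 with DHA, against 11.40 and 11.17 untreated, and differed by -0.18 (SE 0.11, limma adjusted p 0.614). DHA replicates 2 and 3 were above untreated replicate 3 there, and the difference was -0.07 without untreated replicate 1.

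The transcription factors of the myeloid lineage were close to the limit of detection. Spi1 was detected on 1 of 5 DHA and 1 of 2 untreated arrays and read 4.77, 4.80, 4.40, 4.53 and 5.18 with DHA, against 5.21 and 4.90 untreated, a difference of -0.32 (SE 0.21, limma adjusted p 0.628). Irf8 was detected on 2 of 5 DHA and 1 of 2 untreated arrays and differed by -0.14 (SE 0.24). The tetraspanin Cd53 differed by -0.33 (SE 0.34) and the lectin Cd33 by 0.29 (SE 0.22). Both were detected on 1 of 2 untreated arrays. Leaving out untreated replicate 1 turned Cd53 to 0.29, and leaving out untreated replicate 3 turned Cd33 to -0.06.

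The median log2 difference was -0.07 over 10 tested homeostatic genes (4 higher, 6 lower), 0.02 over 9 tested activation genes (5 higher, 4 lower) and -0.24 over 7 tested pan-myeloid genes (1 higher, 6 lower). Over all tested genes it was -0.01, with 5037 higher and 5411 lower. Homeostatic minus activation came to -0.09. By role, the probes at an unadjusted p under 0.05 were 0 higher and 2 lower of 13 homeostatic, 3 higher and 0 lower of 10 activation, and 0 higher and 2 lower of 8 pan-myeloid probes. In either direction that is 15.4%, 30% and 25%, against 10.3% of all tested probes. By gene, 562 of all 10448 tested genes were higher and 472 lower at that limit. The activation count holds both tested probes of Lyz2. Without Fcer1g the activation median was 0.04 and the difference between the roles -0.11. These are descriptions of lists with no test. They also lean on single arrays: without untreated replicate 1 the homeostatic median turned to 0.04 and the pan-myeloid median was -0.04, and without untreated replicate 3 they were -0.13 and -0.30.

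**Figure D3:**
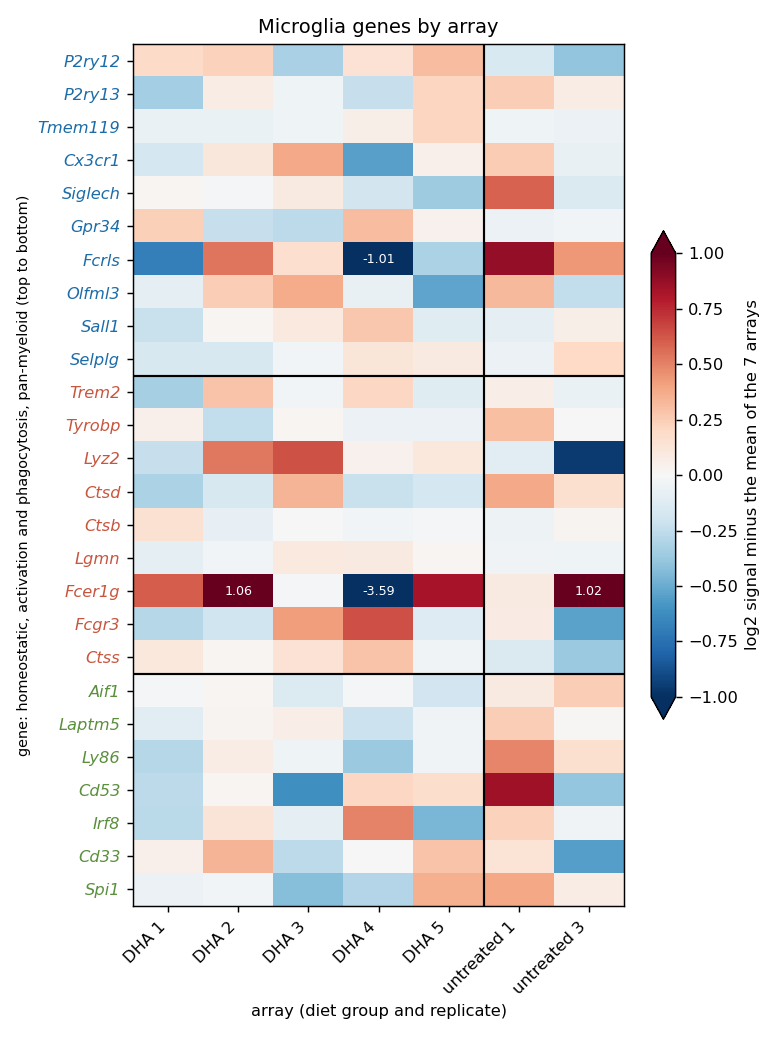
Log2 signal minus the mean of the 7 arrays (colour, limited to 1 in either direction, with values beyond it printed) for the 26 tested microglia genes in rows and the 5 DHA and 2 untreated arrays in columns. Untreated replicate 1 is the highest array for 9 genes and the lowest for 0, and DHA replicate 1 is among the 2 lowest arrays for 14 genes. These ranks were not counted over all tested genes.

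The median SD over the 5 DHA arrays was 0.25 log2 for the 26 members and 0.16 for all tested genes, and 18 members were above 0.16. The other 8, among them Ctsb, Lgmn and Aif1, were not. The genes were not matched for signal level, and the DHA means were 13.27 for Ctsb, 11.74 for Lgmn and 7.11 for Aif1. The array that read highest most often was untreated replicate 1, for 9 of 26 members, and it read lowest for 0. DHA replicate 1 was among the 2 lowest arrays for 14 members and DHA replicate 4 for 10, against 2 for untreated replicate 1 and 8 for untreated replicate 3. The same pair, DHA replicates 1 and 4, held the 2 lowest values for P2ry13, Cx3cr1, Fcrls, Ctsd, Laptm5 and Ly86. These 6 genes come from all 3 roles, and no other pair of arrays was lowest for more than 3 members. The 6 genes were grouped after their values were seen. None of these ranks was counted over all tested genes, so whether they are particular to the members was not tested. The extremes of P2ry12 lay on other arrays, with DHA replicate 3 and untreated replicate 3 lowest.

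The upstream sequences of 3 of these 6 genes, P2ry13, Fcrls and Laptm5, and of Trem2, which is not among the 6, are shown. They hold the 7 bases GAGGAAG. The motif is a form of the site recognised by the Spi1 product, the master regulator of the myeloid lineage. Each line gives the 250 bases before the gene's start on the gene's strand, 5′ to 3′, from RefSeq on GRCm38.p6, with the motif or its reverse complement in capitals.
P2ry13, chr3:59210883-59211132, minus strand: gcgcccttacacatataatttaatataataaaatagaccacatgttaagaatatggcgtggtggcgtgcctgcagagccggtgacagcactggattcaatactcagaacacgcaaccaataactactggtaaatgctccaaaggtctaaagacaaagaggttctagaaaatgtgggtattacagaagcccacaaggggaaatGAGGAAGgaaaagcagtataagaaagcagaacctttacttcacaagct
Fcrls, chr3:87263525-87263774, minus strand: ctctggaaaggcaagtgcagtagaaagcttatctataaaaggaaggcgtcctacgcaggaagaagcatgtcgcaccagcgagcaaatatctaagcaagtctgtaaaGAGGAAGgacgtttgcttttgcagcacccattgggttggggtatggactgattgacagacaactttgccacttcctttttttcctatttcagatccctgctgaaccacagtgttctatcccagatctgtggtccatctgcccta
Laptm5, chr4:130913066-130913315, plus strand: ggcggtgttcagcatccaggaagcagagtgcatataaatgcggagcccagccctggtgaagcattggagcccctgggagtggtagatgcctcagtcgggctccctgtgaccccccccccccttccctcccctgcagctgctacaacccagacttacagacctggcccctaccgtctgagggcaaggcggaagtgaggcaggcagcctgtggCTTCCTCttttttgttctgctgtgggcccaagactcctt
Trem2, chr17:48346151-48346400, plus strand: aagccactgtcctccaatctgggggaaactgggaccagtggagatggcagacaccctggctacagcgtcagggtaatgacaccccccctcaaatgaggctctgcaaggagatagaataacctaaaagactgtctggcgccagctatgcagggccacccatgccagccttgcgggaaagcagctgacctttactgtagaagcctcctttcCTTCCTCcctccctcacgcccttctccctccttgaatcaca
The motif begins 48 bases before the start in P2ry13 and 144 in Fcrls, as written, and 39 in Laptm5 and 41 in Trem2 as its reverse complement. Of 29 such windows of 23 members in the table, 8 windows of 7 genes held it on either strand (27.6%; Fcgr3, Cd33 and Itgam are the others, Fcgr3 with 2 overlapping windows), against 3486 of 32851 windows of all genes (10.6%). The windows of Cx3cr1, Ctsd and Ly86 did not hold it. For the member windows a chromosome was excluded that was not excluded for the windows of all genes. Of 3 related strings searched on both strands, GAGGAA, which lies within the motif, was in 44.8% of member windows and 23.3% of all, AGGAAGT in 20.7% and 7.69%, and GGAAGT, which lies within AGGAAGT, in 31% and 19.7%. A match describes these letters and is not a measured site.

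Border macrophages, which line vessels and meninges, share many genes with microglia, Lyz2 and Ctss among them, and their markers were higher with DHA on most arrays. Of 14 listed genes 12 were tested, and all 12 were higher with DHA, with a median of 0.66. An unadjusted p under 0.05 was reached by 7 of them and an adjusted p under 0.05 by 0. Of all tested probes 10.3% reached the unadjusted limit in either direction, and 0% the adjusted one. The summed normalized signal of the 12 genes was 964, 1449, 2022, 1638 and 1345 on the DHA arrays, against 979 and 673 on the untreated arrays. DHA replicate 1 was level with untreated replicate 1, so the groups overlapped. The highest and the lowest array of this sum, DHA replicate 3 and untreated replicate 3, were also those of Lyz2 on its brighter probe. On its second tested probe DHA replicate 2 was highest, at 6.64, and untreated replicate 3 lowest, at 5.61. Ctss shared the lowest array, and its highest was DHA replicate 4. Cd163, a haemoglobin scavenger receptor, was detected on 5 of 5 DHA and 0 of 2 untreated arrays with measured means of 5.54 with DHA and 4.75 untreated. Set against the lowest detected signal of the untreated arrays, its DHA mean was 1.25-fold, a value without an error of its own. Its measured difference had a limma adjusted p of 0.332. Mrc1, the mannose receptor, differed by 0.97 (SE 0.31, limma adjusted p 0.371) and Cd74, the class II invariant chain, by 0.99 (SE 0.34, limma adjusted p 0.404). Lyve1, Cbr2 and Ms4a7, named after their values were seen, were also detected on 0 untreated arrays. By the same measure Lyve1 was 0.97-fold, Cbr2 1.3-fold and Ms4a7 1.22-fold. Cd163, Lyve1, Cbr2 and Ms4a7 thus passed the detection filter through DHA arrays alone, which favours higher values with DHA. The count of 12 of 12 higher and the median of 0.66 include them. The part of these cells in the Lyz2 and Ctss values was not tested.

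**Figure D4:**
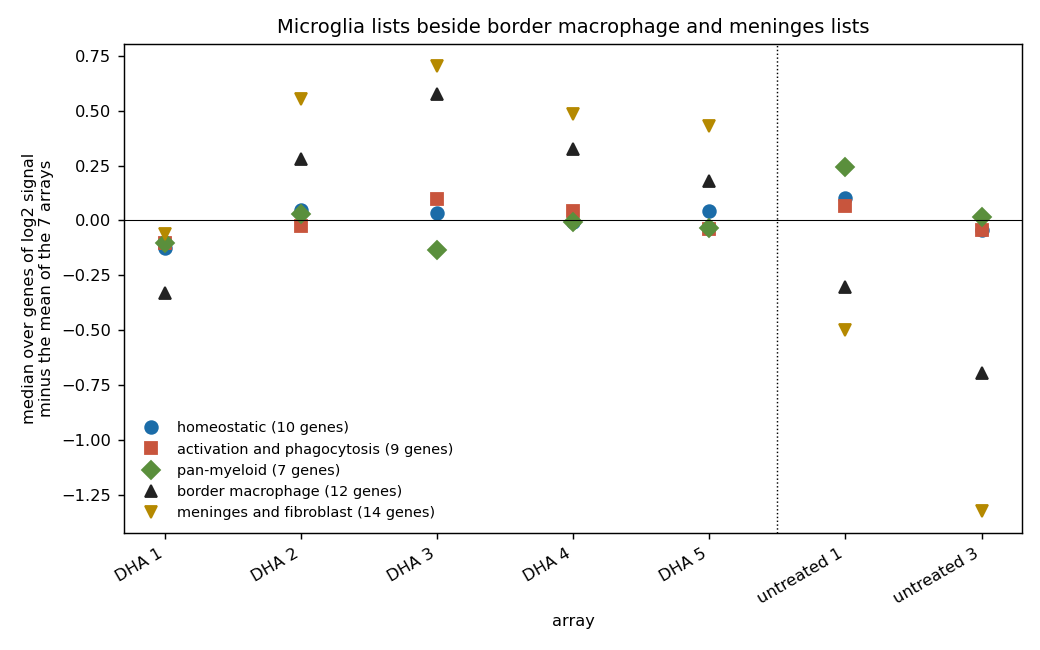
Median over the genes of a list of the log2 signal minus the mean of the 7 arrays (vertical axis), for each array, with the 5 DHA arrays left of the dotted line and the 2 untreated arrays right of it. The 3 microglia lists stay between -0.13 and 0.24, whereas the border macrophage list runs between 0.58 on DHA replicate 3 and -0.69 on untreated replicate 3, and the meninges list between 0.70 and -1.32 on the same arrays.

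Gene lists of other cell types were read in the same way. The 14 tested genes of meninges and fibroblasts were all higher with DHA, with summed signals of 20807 to 32194 against 14819 and 7413. Of these genes 12 had an unadjusted p under 0.05, beside 10.3% of all tested probes in either direction, and 0 an adjusted one. Of the blood leukocyte list 5 of 12 genes on the array were tested and 0 passed. The other 7, among them Ccr2, S100a9, Ngp and the T cell gene Cd3d, were detected on 0 arrays. Of the tested ones 4 were higher and 1, Camp, lower with DHA. Camp differed by -0.36 (SE 0.16, limma adjusted p 0.502) and was detected on 1 DHA and 1 untreated array. Cd79a of B cells was detected on 3 DHA and 0 untreated arrays, and Plac8 on 2 DHA and 0 untreated arrays. Both passed the detection filter through DHA arrays alone. Cd3e of T cells was detected on all 7 arrays, at a difference of 0.0022, and S100a8 of neutrophils on 2 DHA and 1 untreated array. Cd3e and S100a8 are given beyond the genes with the smallest p. The summed signal of the 5 tested genes was 141 to 246 with DHA and 188 and 172 untreated. The 3 red cell genes were all lower with DHA, with a median of -0.71 and 0 past the threshold, and summed to 12294 to 30617 with DHA and to 25056 and 18878 untreated, and the untreated values lay inside the DHA range. The part of any of these in the member values was not tested.

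Further microglia genes, listed for their known roles and not among the 31, held no gene past the threshold either. Of 24 more homeostatic genes 16 were tested, 9 higher and 7 lower with DHA, with a median of 0.04. Slco2b1, an organic anion transporter, differed by 0.28 (SE 0.09, limma adjusted p 0.393), Cmtm6, a stabiliser of membrane proteins, by 0.24 (SE 0.11), and the leukotriene C4 synthase Ltc4s by -0.18 (SE 0.09). All DHA arrays lay above both untreated arrays for Slco2b1 and Cmtm6, and below them for Ltc4s. Of 30 more activation genes 17 were tested, 15 higher and 2 lower with DHA, with a median of 0.15. Beside them stand medians of 1.43 for the meningeal list (14 of 14 higher), 0.66 for border macrophages (12 of 12), 0.24 for endothelium (5 of 6) and 0.16 for astrocytes (6 of 8), and the part of these cells was not tested. Ch25h of the activation genes, Cdh5 of endothelium and Cd163, Lyve1, Cbr2 and Ms4a7 passed the detection filter through DHA arrays alone. Csf1, a growth factor of microglia, differed by 0.54 (SE 0.23, limma adjusted p 0.478), the mitochondrial protein Tspo by 0.21 (SE 0.11) and the protease Ctsl by 0.42 (SE 0.23). The probes of the inflammatory cytokines Tnf, Il1b and Il6 and of the chemokines Ccl2, Ccl3 and Ccl4 were detected on 0 of 7 arrays.

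The signals that microglia receive from other cells were read from 16 ligands, receptors and signalling genes. Of these 12 were tested, 8 higher and 4 lower with DHA, with 0 past the threshold. Tgfbr2, a receptor for the growth factor that maintains the homeostatic state, read 9.49, 9.59, 9.46, 9.51 and 9.43 with DHA, against 8.87 and 8.69 untreated. All DHA arrays were above both untreated arrays, and the difference was 0.72 (SE 0.09, limma adjusted p 0.0989). Its partner Tgfbr1 differed by 0.18 (SE 0.09) and the ligand Tgfb1 by -0.07 (SE 0.14). Tgfbr2 is also known in vessels and fibroblasts, whose endothelial and meningeal lists had the medians of 0.24 and 1.43 given above, and their part was not tested. Inpp5d, a lipid phosphatase of blood and microglial cells, differed by 0.25 (SE 0.10, limma adjusted p 0.457). Tgfbr1, Tgfb1, the fractalkine gene Cx3cl1, at -0.06 (SE 0.12), and Il34, a neuronal ligand of the receptor encoded by Csf1r, at 0.02 (SE 0.16), are given outside the naming rule as partners of the members.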

How the data were processed

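Total RNA of 7 hypothalami was labelled with biotin and hybridised to Illumina bead arrays, per the labels' protocols. The deposited non-normalized table holds a linear signal intensity and a detection p-value per probe and array, per the file headers; no background had been subtracted, as the lowest signals were 117.08 to 123.56. It also holds 2 columns that match no sample and were not used. The authors' normalized table, also a linear intensity, served as an alternative; lumi 2.10.0 and R 2.15.0 appear in the submitters' processing notes, with the normalization method not given in the sources used here.

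Background was removed by the normexp model of limma 3.58.1 (in R 4.3.3), its parameters estimated through detection p-values; 16 was added, and arrays were quantile normalized and log2 transformed. The added 16 shrinks differences at low signal. The annotation names 1 gene symbol for 23978 of 25697 probes, several for 0 and none for 1719; 23962 were matched by gene identifier to the GRCm38.p6 gene table for names. Probes with a detection p under 0.05 on at least 2 arrays were tested with lmFit and eBayes, DHA minus untreated, in two-sided tests, and p-values were adjusted by Benjamini-Hochberg across all tested probes, with a threshold of 0.05. The brightest probe stands for a gene. Per-array values are given for P2ry12, Cx3cr1 and Tmem119 and for the 4 genes with the smallest p in each role; second probes where signs differ or values differ by over 0.3 log2; and up to 3 genes of each other list described. Fcer1g, Trem2 and the second probes of Siglech and Lyz2 are also given in full, a choice made after their values were seen. The members and lists were chosen with earlier results of these data known. The alternatives are named under the processing section below the report.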

Additional observations from a re-analysis of the deposited data

Results flagged for a closer look

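In the DHA group, 3 members had 1 array farther from the other 4 than Dixon's limit for 5 values allows; chance gives such an array in about 1 of 20 groups, and 31 probes were examined. Fcer1g read 4.74 log2 on DHA replicate 4, against 8.31 to 9.39 on the other DHA arrays. P2ry12 read 6.01 on DHA replicate 3, against 6.48 to 6.65. Ctsd read 6.00 on DHA replicate 3, against 5.34 to 5.50. The causes were not tested.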

How the results depend on the processing

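In every alternative that gives a test, 0 member probes passed; the lowest adjusted p of a gene's brightest probe was 0.293. Over all probes, 12 passed (11 higher, 1 lower) without background correction and 12 (11 higher, 1 lower) on the authors' normalized values, 1 with normexp and an offset of 50, 52 (46 higher, 6 lower) with an intensity trend and robust variances, and 0 to 3 when single arrays were left out (3 without untreated replicate 3). Member probes at an unadjusted p under 0.05 numbered 4 with the intensity trend, 2 with the replicate block and 4 (without untreated replicate 1) to 8 without single arrays. The median of all members was -0.0001 over the 19 members with a detection p under 0.01 on all arrays. It was -0.22 to 0.0353 without single arrays. That of homeostatic members was -0.13 to 0.0397 and that of pan-myeloid members -0.30 to -0.0375 without single arrays. The pan-myeloid median was -0.11 without background correction and on the authors' values. The extremes of these medians came from leaving out an untreated array, where the single array left is assumed to vary like the others. Of 26 genes, 14 kept their sign in every alternative where their brightest probe was tested. Of these, Fcrls, Ctsd, Irf8 and Spi1 were not tested at the detection p limit of 0.01 on all arrays. Spi1 was also not tested without DHA replicate 5 or without untreated replicate 1. With the replicate block the difference rests on replicates 1 and 3 alone, since the other DHA replicates have no untreated array of their number. There the sign turned for Tmem119 (-0.0024), Cx3cr1 (0.0111), Olfml3 (0.11) and Sall1 (-0.0389). The numbers share no stated source. Same-numbered arrays correlated at 0.00336 and 0.0339 in their deviations. The untreated arrays deviate from their mean by equal and opposite amounts, so these values are not separate checks. They cannot show whether the numbers mark pairs. Trem2 turned to 0.0037 without background correction, 0.0025 with the offset of 50 and 0.0238 with median scaling of the arrays, where Ctsb was -0.0794. Without single arrays the ranges that crossed 0 were -0.29 to 0.0353 for Cx3cr1, -0.68 to 0.0581 for Siglech, -0.0101 to 0.13 for Gpr34, -0.34 to 0.23 for Olfml3, -0.0445 to 0.11 for Sall1, -0.23 to 0.0278 for Selplg, -0.0701 to 0.0829 for Trem2, -0.0197 to 0.0582 for Ctsb, -1.25 to 0.0611 for Fcer1g, -0.95 to 0.29 for Cd53 and -0.0589 to 0.64 for Cd33. The causes were not tested. No slide or position is given in the files used, so that block was not run. The omission of Fcer1g was added after seeing the data.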
